A study of Mus musculus with 18 samples.

Results

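mmu-miR-133a-3p, mmu-miR-143-3p, mmu-miR-142a-3p and mmu-miR-146a-5p are 4 of the 459 mature miRNAs measured in Argonaute 2 (Ago2) pulldowns from the mouse colon. Their names are written without the species prefix from here on. These 4 miRNAs were picked by name, from what is known of their tissues, and all 4 had a value in each of the 6 miRNA libraries. The assay was HEAP, a CLIP-seq method in which Halo-tagged Ago2 is captured on a resin after UV crosslinking and digested to free the miRNAs and mRNA fragments it held. The G12D mice carried Halo-Ago2/+, Fabp-Cre/+ and K-Ras-G12D/+, and the WT mice carried Halo-Ago2/+ and Fabp-Cre/+ with the unaltered K-Ras allele. Both groups were of the C57BL/6 strain and were 8 to 12 weeks old, and their distal colon was scraped to enrich for epithelium and crosslinked in 3 rounds of 400 mJ per cm2. The Fabp promoter, from a fatty acid binding protein gene, drives Cre in intestinal epithelium, and Cre switches on the tag. The scrape can hold muscle, fibroblasts, vessels and leukocytes, whose Ago2 carries no tag, which is why the level of these 4 miRNAs was compared with that of epithelial miRNAs.

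A mature miRNA guides Ago2 to mRNAs that pair with its seed, the bases near its 5′ end, and the bound mRNA is then repressed. miR-133a is made with miR-1 from shared transcripts of skeletal and cardiac muscle, where both act in myoblast growth and differentiation. miR-143 is made with miR-145 from a single transcript of smooth muscle and fibroblasts, and in the mouse gut both were traced to mesenchymal cells. miR-142 is a general miRNA of blood cells, and miR-146a is induced by NF-κB and damps Toll-like receptor signalling through the adaptor Traf6 and the kinase Irak1. miR-146b is a paralog of miR-146a made from its own gene.

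The sequences below show the seed that miR-146a shares with its paralog, since that seed defines the only target sites of these families in the peak annotation, and the different seed of the other blood cell miRNA. Sequences were taken from RefSeq on GRCm38.p6, where 2 of the 4 miRNAs were matched by name, and the capitals mark the seed (bases 2 to 8).
miR-142a-3p: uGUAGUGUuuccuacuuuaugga
miR-146a-5p: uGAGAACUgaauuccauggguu
miR-146b-5p: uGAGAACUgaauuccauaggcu

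The mature miR-142a-3p lies at chr11:87756903-87756925 on the plus strand, where the gene Mir142b is also annotated. miR-146a-5p lies at chr11:43374435-43374456 on the minus strand, outside any other annotated gene. miR-146b-5p lies at chr19:46342790-46342811 on the plus strand, within the gene Gm36493. The miR-146 pair is identical over the first 17 of 22 bases. It differs by G18A and U21C, counted from the 5′ end with the base of miR-146a-5p first, so reads that stop before position 18 cannot be assigned to either, and how the authors counted such reads is not given in the sources used here.

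Each genotype had 3 miRNA libraries and 3 mRNA libraries of the pulldown. The labels number the libraries but do not tie each to a separate mouse, and p-values therefore measure the spread between these libraries, which may be technical. The miRNA libraries held 337788 to 433245 reads in G12D and 437439 to 535932 reads in WT, so every G12D library was shallower than every WT library. The mRNA libraries held 148927 to 723937 reads in peaks in G12D and 54401 to 148770 in WT, with every G12D library the deeper. The part of these depths in the differences below was not tested. Of 20 epithelial genes such as Epcam, Cdh1 and Vil1, 20 had an Ago2 peak. Of 42 genes of smooth muscle, stroma, immune cells, red cells and endothelium, 1 did, the myosin light chain kinase gene Mylk. Both gene lists were chosen with earlier results of these data known, and the share of all genes with a peak is not given here.

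All 4 miRNAs were found in the Ago2 pulldown, at levels far below the epithelial miRNAs and spread over a wide range. Levels are normalized reads, the reads of a mature miRNA divided by the authors' factor for the library. miR-146a-5p averaged 1418 normalized reads over the 6 libraries and ranked 58 of 459. miR-142a-3p averaged 758 and ranked 74, miR-133a-3p averaged 127 and ranked 123, and miR-143-3p averaged 48.8 and ranked 168. The order of neighbours did not hold throughout: miR-146a-5p was above miR-142a-3p in 5 of 6 libraries, and miR-133a-3p was above miR-143-3p in 5 of 6. The step between miR-142a-3p and miR-133a-3p, a ratio of means of 5.96, was present in 6 of 6.

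**Figure D1:**
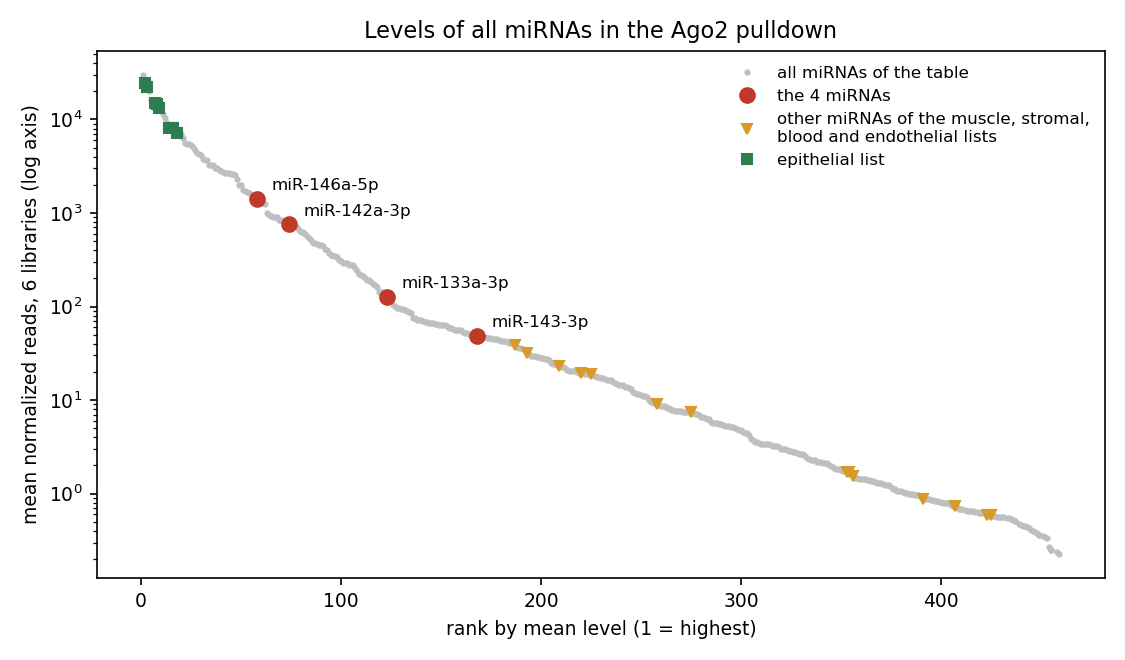
Mean normalized reads over the 6 libraries (log axis) against rank for all miRNAs of the table, with the 4 miRNAs as red circles, the 8 epithelial miRNAs as green squares and the other measured miRNAs of the muscle, stromal, blood and endothelial lists as yellow triangles. The epithelial miRNAs hold ranks 2 to 18, the 4 miRNAs ranks 58 to 168, and the other listed miRNAs lie below miR-143-3p.

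The epithelial list consisted of miR-192-5p, miR-194-5p, miR-215-5p and the miR-200 family (miR-200a-3p, miR-200b-3p, miR-200c-3p, miR-141-3p and miR-429-3p), which keeps epithelial identity by repressing Zeb1 and Zeb2. All 8 were measured, at 4810 to 33180 normalized reads per library, and together they made up 24.0% to 29.2% of the reads of a library. The 4 miRNAs together made up 0.392% to 0.992%. The median epithelial miRNA exceeded miR-146a-5p by 3.76-fold to 17.9-fold across the 6 libraries and miR-142a-3p by 14.2-fold to 26.8-fold. It exceeded miR-133a-3p by 38.6-fold to 252-fold and miR-143-3p by 132-fold to 535-fold.

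miR-146a-5p, miR-142a-3p and miR-133a-3p were well above the other miRNAs known from the same cells, and miR-143-3p was close to the next ones, its own 5p arm (mean 38.9 normalized reads) and miR-126a-5p (mean 31.6). The lists for skeletal and cardiac muscle, smooth muscle and stroma, immune cells, red cells and endothelium named 32 miRNAs, of which 18 had a row, and the 4 miRNAs held 93.8% of the normalized reads of those 18. miR-1a-3p, made from the same transcripts as miR-133a, had 0, 0 and 1 reads in the G12D libraries and 2, 1 and 1 reads in the WT libraries. Summed over the 6 libraries that is 5 reads, against 848 reads of miR-133a-3p, a ratio of 170 (exact 95% interval 72.4 to 524, counting error only). The miR-1a and miR-133a genes lie 9254 bases apart at one shared locus and 2504 bases apart at the other. The heart and slow muscle miRNA miR-499-5p had at most 3 reads in a library. miR-206-3p, miR-208a-3p, miR-208b-3p, miR-133b-3p and the 5p arms of miR-133a and miR-1a-1 had no row among the 459 analysed.

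In the smooth muscle and stromal list, miR-145a-5p, encoded 1301 bases from miR-143 in the host gene Carmn, had 19.2, 13.3 and 15.2 normalized reads in the G12D libraries and 17.1, 30.0 and 18.0 in the WT libraries. That is lower than miR-143-3p in 5 of 6 libraries and within the same order of magnitude in all 6, unlike the pair of miR-133a and miR-1a. miR-199a-5p had at most 2 reads in a library, and miR-145a-3p at most 3. miR-199a-3p, miR-199b-5p and both arms of miR-214, miRNAs of fibroblasts, had no row among the 459 analysed.

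In the immune cell list, the lymphocyte miRNA miR-150-5p averaged 19.5 ± 10.8 normalized reads in G12D and 19.7 ± 1.77 in WT (SD, n = 3 each). miR-342-3p averaged 7.69 ± 4.01 in G12D and 10.4 ± 0.85 in WT, and miR-155-5p, induced in activated leukocytes, averaged 6.46 ± 3.80 in G12D and 8.35 ± 2.96 in WT. The myeloid miRNA miR-223-3p, miR-142a-5p and miR-146a-3p had no row. The red cell miRNAs miR-451a, miR-144-3p and miR-144-5p summed to 2.66 to 8.22 normalized reads in G12D and 0.681 to 9.48 in WT, and the endothelial pair miR-126a-3p and miR-126a-5p to 46.6 to 67.2 in G12D and 41.1 to 55.9 in WT. Whether the 4 miRNAs came from tagged cells was not tested, and fewer cells of a type and less RNA per cell cannot be told apart.

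Between the genotypes, none of the 4 miRNAs passed the test, and the paralog miR-146b-5p fell. The test was limma across the 254 miRNAs whose mean over the libraries reached 10 normalized reads, on log2(normalized reads + 1) with Benjamini-Hochberg adjustment at 0.05. It called 40 miRNAs (15.7% of those tested), 23 of them higher and 17 lower in G12D, with a median log2 fold change of 0.11. With each library set to the same total the split was 6 higher and 31 lower and the median was -0.26. Without WT library 3 the number of calls was 20. All 4 miRNAs passed the filter. An unadjusted p under 0.05 was found for 2 of them (miR-142a-3p and miR-146a-5p), and the share of all tested miRNAs at that level is not given here. edgeR with TMM and DESeq2 each called 1 of the 4, miR-146a-5p, against 37 and 34 of all 254. Beside the 4, 5 other miRNAs of the 5 lists could be tested (miR-143-5p, miR-145a-5p, miR-150-5p and both arms of miR-126a). Of these, 0 were called by limma, edgeR or DESeq2 or had an unadjusted p under 0.05 in any of them. With 15.7% of all tested miRNAs called by limma, 0 of 5 does not set these apart from the rest.

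**Figure D2:**
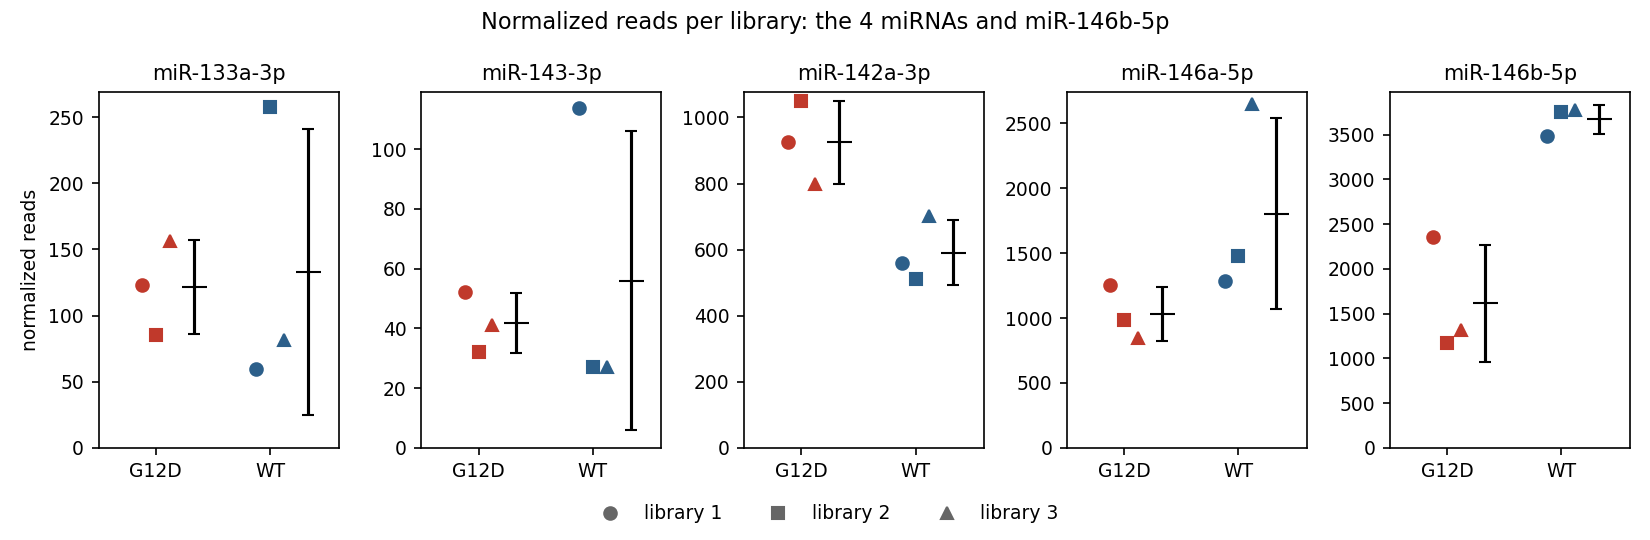
Normalized reads of the 4 miRNAs and of miR-146b-5p in each G12D library (red, left) and WT library (blue, right), with the mean and SD of each group in black. The axes start at 0 and differ between panels. miR-142a-3p is higher in every G12D library, miR-146a-5p and miR-146b-5p are lower in every G12D library, and 1 WT library each stands high for miR-133a-3p and miR-143-3p.

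miR-133a-3p had 123, 85.3 and 156 normalized reads in G12D libraries 1 to 3, against 59.7, 257 and 81.5 in WT libraries 1 to 3. The groups overlapped, and WT library 2 was the highest of all and WT library 1 the lowest. The log2 fold change was 0.13 ± 0.42 (SE, adjusted p = 0.867, limma), although the G12D mean of 122 ± 35.5 lay below the WT mean of 132.8 ± 108 (SD, n = 3 each). The sign depended on single libraries: without WT library 2 the log2 fold change was 0.75 (adjusted p = 0.187, limma), and without WT library 1 it was -0.30 (adjusted p = 0.733, limma). Its coefficient of variation among the WT libraries was 81.6%, rank 4 of the 254 tested miRNAs, where counting error alone would give 7.39% and the median miRNA had 27.3%. Among the G12D libraries it was 29.2%, against a median of 21.7%.

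miR-143-3p had 52.0, 32.0 and 41.2 normalized reads in G12D libraries 1 to 3, against 114, 27.2 and 26.9 in WT libraries 1 to 3. WT library 1 alone stood high, and the other WT libraries lay below all G12D libraries. The log2 fold change was -0.10 ± 0.46 (SE, adjusted p = 0.916, limma), and without WT library 1 it was 0.58 (adjusted p = 0.435, limma). Its coefficient of variation among WT libraries was 89.4%, rank 2 of 254. The libraries that stood high were different ones for miR-133a-3p and miR-143-3p.

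The high value of WT library 1 belonged to 1 arm of the miR-143 hairpin. The 5p arm had 45.2, 32.0 and 41.2 normalized reads in G12D libraries and 37.0, 45.6 and 32.2 in WT libraries, with overlapping groups and no library apart. The 3p arm therefore took 53.5% of the reads of the hairpin in G12D library 1 and exactly as many reads as the 5p arm in G12D libraries 2 and 3. In the WT libraries it took 75.5%, 37.4% and 45.6%. The Wilson 95% interval was 68.2% to 81.5% in WT library 1 and 28.8% to 46.8% in WT library 2, counting error only. The arms were close to even by the measure of other hairpins: over the 98 miRNAs with both arms in the table and at least 10 normalized reads in all, the more abundant arm held a median of 96.0%. For miR-143 it held 55.7%, rank 6 from the most even.

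miR-142a-3p had 926, 1049 and 799 normalized reads in G12D libraries, against 561, 510 and 701 in WT libraries. Every G12D library was above every WT library, as was the case in one direction or the other for 29.5% of the 254 tested miRNAs. The ratio of means was 1.57 and the log2 fold change 0.65 ± 0.28 (SE, adjusted p = 0.102, limma), which did not pass. Over 18 alternatives the log2 fold change was 0.25 to 0.78 and the adjusted p 0.0911 to 0.681. The authors' deposited table gives a log2 fold change of 0.61 with an adjusted p of 0.0799. As a share of all miRNA reads it took 0.200%, 0.203% and 0.170% in G12D libraries and 0.135%, 0.140% and 0.201% in WT libraries, so on that scale WT library 3 reached the G12D range.

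miR-146a-5p had 1258, 989 and 844 normalized reads in G12D libraries, against 1286, 1479 and 2651 in WT libraries. The groups did not overlap, but G12D library 1 and WT library 1 lay next to each other, and WT library 3 stood high. The mean was 1030 ± 210 in G12D and 1805 ± 739 in WT (SD, n = 3 each), and the log2 fold change was -0.75 ± 0.28 (SE, adjusted p = 0.0526, limma). The call lay at the threshold and moved with the processing: 11 of 18 alternatives put the adjusted p under 0.05, over a range of 0.00849 to 0.373. edgeR with TMM on the recovered reads gave -1.03 (adjusted p = 0.00849) and DESeq2 -0.86 (adjusted p = 0.0438), and without WT library 3 the limma value was -0.44 (adjusted p = 0.373). The authors' deposited table gives -0.73 with an adjusted p of 0.0726.

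miR-146b-5p was more abundant than miR-146a-5p in 6 of 6 libraries and fell in G12D. It had 2362, 1167 and 1312 normalized reads in G12D libraries, against 3488, 3749 and 3782 in WT libraries. The WT libraries lay close together, with a coefficient of variation of 4.38%, rank 252 of 254, while G12D library 1 stood above the other G12D libraries. The log2 fold change was -1.26 ± 0.25 (SE, adjusted p = 0.000537, limma), 1 of the 17 miRNAs called lower (6.69% of those tested). It passed in all 18 alternatives, at -1.65 to -1.06, and the authors' deposited table gives -1.09 with an adjusted p of 0.00308. The paralogs summed gave -1.08 (adjusted p = 0.00119, limma). That value does not depend on how reads were divided between the paralogs, provided that each shared read was counted once, which is not known. The ratio of miR-146b-5p to miR-146a-5p was 1.88, 1.18 and 1.56 in G12D libraries and 2.71, 2.54 and 1.43 in WT libraries, with overlapping groups.

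Scaling of the libraries moved the median of all tested miRNAs by more than 0.1 on the log2 scale, so the changes were also taken relative to that median. Over the deposited factors and 6 other scalings or tools, miR-142a-3p was 0.54 to 0.60 above the median, miR-146a-5p was between -0.90 and -0.83, and miR-146b-5p between -1.46 and -1.27. miR-143-3p lay between -0.50 and -0.017, and miR-133a-3p between -0.21 and 0.31. A single factor per library shifts all miRNAs nearly alike. Setting each library to the same total or epithelial sum could therefore hardly move these values.

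**Figure D3:**
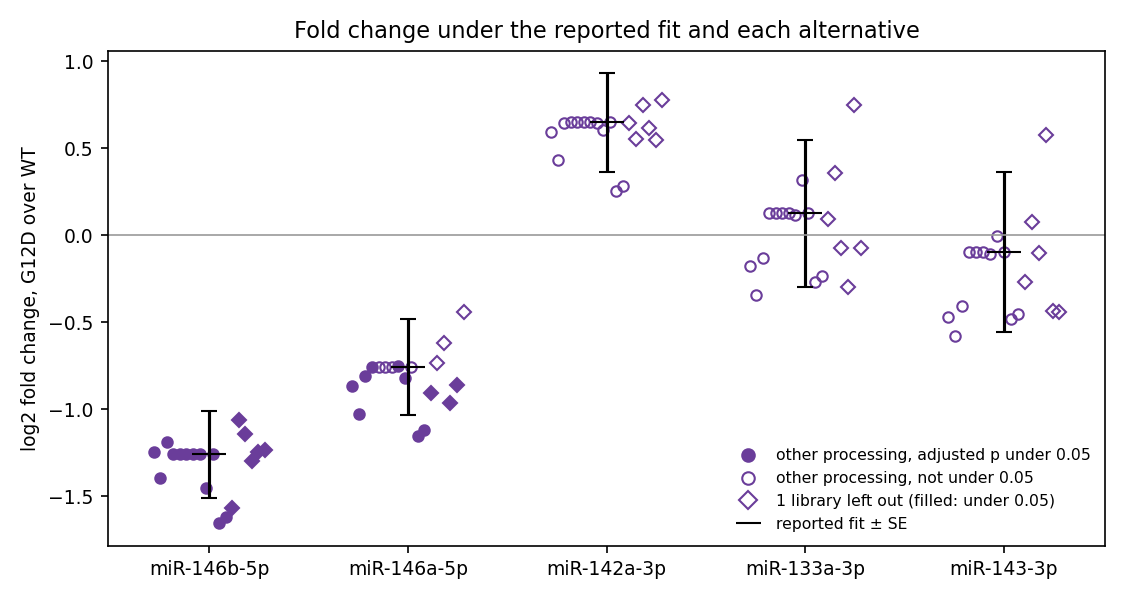
Log2 fold change of G12D over WT for miR-146b-5p and the 4 miRNAs, with the reported limma fit and its SE in black and each alternative as a purple symbol, filled where the adjusted p was under 0.05. Circles are other filters, scalings and tools, and diamonds leave out 1 library. All symbols of miR-146b-5p are filled, those of miR-146a-5p are partly filled, all those of miR-142a-3p are open and above 0, and those of miR-133a-3p and miR-143-3p lie on both sides of 0.

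A ratio within a library does not depend on its scaling factor, so the 4 miRNAs were also taken per 1000 reads of the epithelial list. Their sum was 20.1, 15.2 and 14.6 in G12D libraries, against 16.7, 25.1 and 41.4 in WT libraries. The groups overlapped, and the difference of mean log2 values was -0.65 (two-sided exact permutation p = 0.2, where 0.1 is the smallest that 3 against 3 libraries allow). Without miR-146a-5p the difference was 0.083 (exact permutation p = 0.9), and without WT library 3 it was -0.31 (exact permutation p = 0.4). miR-142a-3p per 1000 epithelial reads was 7.89, 7.39 and 6.36 in G12D libraries and 4.64, 5.62 and 8.39 in WT libraries, so its groups overlapped on this scale. For miR-146a-5p the values were 10.7, 6.97 and 6.72 in G12D libraries and 10.6, 16.3 and 31.7 in WT libraries, again with overlap, and its log2 difference was -1.15 (exact permutation p = 0.2). miR-146b-5p kept separate groups, at 20.1, 8.23 and 10.4 in G12D libraries and 28.9, 41.3 and 45.3 in WT libraries (log2 difference -1.65, exact permutation p = 0.1). Members of the epithelial list differed between genotypes too. limma called 3 of 8 higher in G12D (miR-192-5p, miR-194-5p and miR-200b-3p), against 23 of all 254 tested miRNAs. The list had a median log2 fold change of 0.43, against 0.11 over all tested. edgeR with the deposited factors called 1 of 8, against 21 of 254 higher, with medians of 0.39 and 0.079. DESeq2 called 0 of 8, against 13 of 254 higher, with medians of 0.34 and 0.031. edgeR with TMM called 0 of 8, against 11 higher, with medians of 0.19 and -0.13. limma with each library set to the same total called 0 of 8, against 6 higher, with medians of 0.062 and -0.26. In these last 3 fits no miRNA of the list had an unadjusted p under 0.05. The list median lay above that of all tested miRNAs in each of these fits. With quantile normalization it lay below, at -0.056 against 0.011, and 0 of 8 were called.

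**Figure D4:**
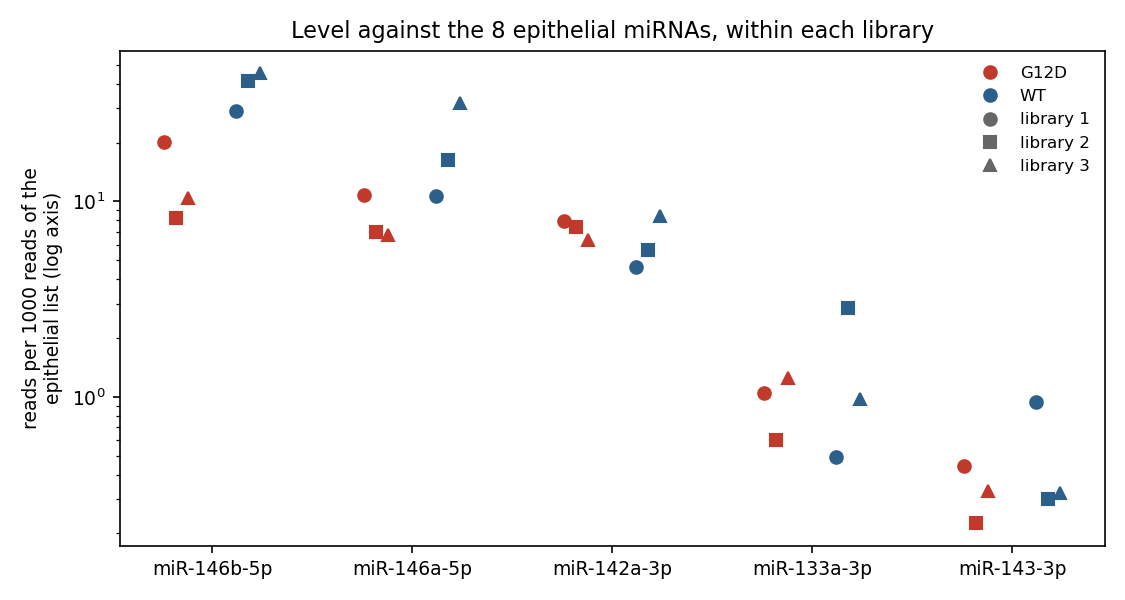
Reads of each miRNA per 1000 reads of the 8 epithelial miRNAs in the same library (log axis), with G12D libraries in red to the left of WT libraries in blue and a symbol for each library number. The genotypes are separate for miR-146b-5p and overlap for miR-146a-5p, miR-142a-3p, miR-133a-3p and miR-143-3p.

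The 4 miRNAs did not vary together. Pearson correlations of log2(normalized reads + 1) between pairs of them over the 6 libraries lay between -0.53 and -0.18, given as a description since the 6 points come from 2 genotypes. The tested miRNAs whose pattern was most like miR-146a-5p were miR-181d-5p (r = 0.93), miR-181c-5p (r = 0.88) and miR-181b-5p (r = 0.84), all of 1 seed family. Those most like miR-142a-3p were miR-19a-3p (r = 0.98), miR-374b-5p (r = 0.97) and miR-17-5p (r = 0.96), of which miR-19a and miR-17 are made from 1 cluster. For miR-133a-3p they were miR-30d-3p (r = 0.96), miR-16-1-3p (r = 0.93) and miR-434-3p (r = 0.91). For miR-143-3p they were miR-467d-5p (r = 0.92), miR-215-5p (r = 0.88) and miR-96-5p (r = 0.88). Of these 12, limma called miR-374b-5p, which averaged 4550 normalized reads in G12D and 2772 in WT.

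The mRNA side of the pulldown bears on the miR-146 family alone. The authors annotated each peak with seed matches of 75 miRNA families, and miR-146 was among them while miR-133, miR-142 and miR-143 were not. A match of 8mer, 7m8 or 7A1 type to the shared miR-146 seed was annotated in 50 of 5448 peaks, which places the family at rank 37 of the 75, and a 6mer match alone in 47 more. Of the 50 peaks 34 lay in a 3′ UTR, 11 in an exon, 3 in a 5′ UTR and 2 in an intron. By the authors' peak lists of each genotype, 37 of the 50 were in the G12D list only, 12 in both and 1 in the WT list only (74%, 24% and 2%). Over all 5448 annotated peaks the shares were 77.6%, 15.1% and 7.36%.

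The miR-146 site peaks did not move in 1 direction. The peak test, limma as above on peaks averaging 5 or more normalized reads, covered 36 of the 50, and the 14 left out had 8 to 71 reads in G12D and at most 4 in WT over their 3 libraries. It called 11 of the 36 higher in G12D (30.6%, against 36.2% of all 4438 tested peaks) and 3 lower (8.33%, against 12.7%). The median log2 fold change of the 36 was 0.77, against 1.05 over all tested peaks. The split depended on scaling: edgeR with TMM on the recovered reads called 5 of the 36 higher and 8 lower, and over all peaks 1093 higher and 894 lower. Leaving out G12D library 1, 2 or 3 gave 9, 7 and 8 called peaks in place of 14, and leaving out WT library 3 gave 9. Every mRNA library of G12D was deeper than every one of WT, so depth and genotype cannot be told apart. Binding and transcript level cannot be told apart in these peaks, since the input libraries were not analysed here.

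**Figure D5:**
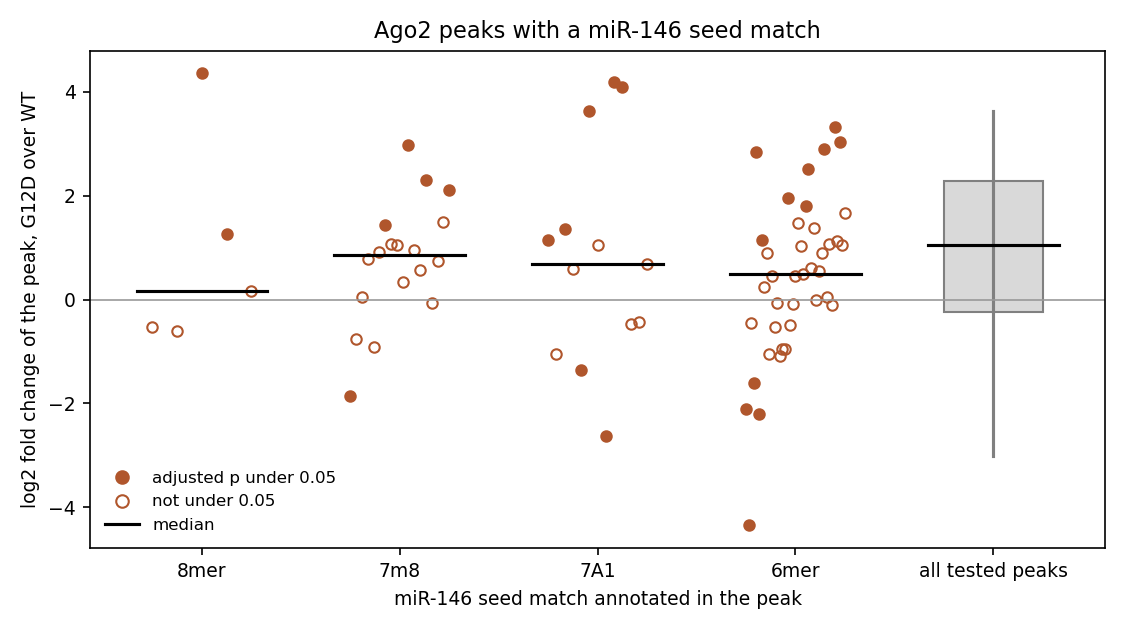
Log2 fold change of G12D over WT for tested peaks with a miR-146 seed match, by type of match, with filled points where the adjusted p was under 0.05 and a line at the median. At the right, the box spans the middle 50% and the line 5% to 95% of all 4438 tested peaks. The medians of the 8mer, 7m8, 7A1 and 6mer peaks were 0.17, 0.85, 0.68 and 0.49, against 1.05 over all tested peaks.

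The 5 most abundant peaks with a miR-146 match were in RP23-81C12.1, Txn1, Met, Ttc39a and Hmgcs1. The peak labelled RP23-81C12.1 (chr17:39842996-39843048, plus strand, exon, GRCm38) had 147, 156 and 298 normalized reads in G12D libraries, against 989, 409 and 803 in WT libraries. It fell, with a log2 fold change of -1.85 ± 0.43 (SE, adjusted p = 0.00446, limma). What kind of RNA this label stands for was not tested. The peak in an exon of Txn1, the redox protein thioredoxin (chr4:57943921-57943973, minus strand), averaged 218 ± 118 in G12D and 381 ± 231 in WT (SD, n = 3 each). It did not pass limma (adjusted p = 0.227) or DESeq2 (adjusted p = 0.0773). Of 13 alternatives, with adjusted p of 0.0102 to 0.681, 1 passed, edgeR with TMM (adjusted p = 0.0102). In that fit the median log2 fold change of all tested peaks was 0.47, against 1.05 in limma. Both peaks also carry a match of miR-29-3p, as does the Hmgcs1 peak, which has 6mers of miR-375-3p and miR-24-3p too. The Met peak also carries a 7m8 match of miR-34-5p/449-5p and a 6mer of miR-192-5p/215-5p. The Ttc39a peak also carries an 8mer of let-7-5p/miR-98-5p and a 6mer of miR-196-5p.

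Met, the receptor of hepatocyte growth factor, had an 8mer match in its 3′ UTR (chr6:17571880-17571931, plus strand). That peak had 131, 147 and 201 normalized reads in G12D libraries, against 270, 200 and 219 in WT libraries, so the highest G12D library reached the lowest WT library. Its log2 fold change was -0.53 ± 0.33 (SE, adjusted p = 0.191, limma), while edgeR with TMM gave -1.08 (adjusted p = 0.0205) and DESeq2 -0.88 (adjusted p = 0.0286). Those were the 2 of 13 alternatives that passed, over a range of adjusted p of 0.0205 to 0.797. Ttc39a, a tetratricopeptide repeat protein, had an 8mer match in an exon (chr4:109416046-109416096, plus strand), with 91.6, 123 and 103 in G12D libraries, against 113, 154 and 241 in WT libraries. It did not pass limma (adjusted p = 0.174), while edgeR gave 0.0123 and DESeq2 0.0368, within 0.0123 to 0.450 over 13 alternatives. The 3′ UTR peak of Hmgcs1, an enzyme of cholesterol synthesis (chr13:119707559-119707615, plus strand), averaged 76.1 ± 19.0 in G12D and 73.3 ± 16.5 in WT (SD, n = 3 each; adjusted p = 0.918, limma).

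Among the 10 genes studied as targets of miR-146a, 2 had a peak, Irak2 and Egfr, and 1 peak held a miR-146 match. Of the 3 tested peaks, limma called 2 higher and 0 lower, against 36.2% and 12.7% of all tested peaks. By edgeR with TMM 2 were higher and 1 lower. The 2 called higher by limma were those of Egfr, which held no miR-146 match. Irak2, a kinase of the Toll-like and interleukin-1 receptor pathway, carried a 6mer match in its 3′ UTR (chr6:113694521-113694580, plus strand), beside an 8mer of miR-200ab-5p. The Irak2 peak had 8.72, 14.6 and 10.8 normalized reads in G12D libraries, against 25.5, 29.0 and 20.6 in WT libraries. The log2 fold change was -1.09 ± 0.45 (SE, adjusted p = 0.0653, limma), and 4 of 12 alternatives put the adjusted p under 0.05, over a range of 0.0128 to 0.149. Traf6, Irak1, Card10, Numb, Smad4, Notch1, Notch2 and Relb had no annotated peak.

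Genes studied as targets of the other miRNAs had peaks too, without annotated matches to those families, and their counts are to be read against the 36.2% of all tested peaks called higher and the 12.7% called lower. For miR-133a, 5 of 10 genes had peaks (Cdc42, Egfr, Pkm, Mcl1 and Bcl2l2), and 13 of 19 tested peaks were called higher and 1 lower (12 and 1 by edgeR with TMM). The gene Mcl1, a BCL2 family member that blocks apoptosis, holds 14 of the gene set's peaks, so they are not independent of each other. For miR-142, 5 of 10 genes had peaks (Rac1, Itgav, Prkca, Cfl2 and Wasl), with 5 of 7 tested peaks called higher and 0 lower (4 and 0 by edgeR with TMM), and Prkca, a protein kinase C, holds 5 of the 12 peaks. For miR-143, 3 of 9 genes had peaks (Hk2, Klf4 and Dnmt3a), with 1 of 12 tested peaks called higher and 3 lower (0 and 5 by edgeR with TMM), and the transcription factor gene Klf4 holds 9 of the 14 peaks. In the epithelial gene list 55 of 106 tested peaks were called higher and 8 lower (45 and 13 by edgeR with TMM). The mucin genes Muc2 and Muc3 hold 25 and 15 of its 116 peaks, so these counts do not stand for 20 separate genes.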

How the data were processed

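Of 18 libraries in 6 groups, the 6 miRNA and 6 pulldown mRNA libraries were analysed and the 6 input libraries were not. The submitters' processing notes name STAR 2.5.2b and DESeq2 with the builds mm10 and GRCm38. The deposited normalized values are a signal, reads divided by 1 factor per library, and undoing that factor gave whole reads, to within 0.01, for 100% of the values above 0. The authors' deposited log2 fold changes, p-values and peak lists were used as stated, and the authors' peak score was not used.

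limma 3.58.1 (with a variance trend) was run on log2-transformed normalized reads, after adding 1, for miRNAs with a mean of at least 10 and peaks with a mean of at least 5, after checks on simulated data. Adjustment ran over all tested features. Alternatives were other pseudocounts, filters and scalings, the replicate block, each library left out, and edgeR 4.0.16 and DESeq2 1.42.0 on the recovered reads. Ratios were compared with an exact permutation test. Intervals cover counting error only. Peaks were taken as listed in a genotype where they shared at least 1 base on the same strand.

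The members and lists were chosen with earlier results of these data known. The text names the 4 miRNAs, the opposite arm and paralog, all measured list miRNAs, the 3 most similar miRNAs by correlation, the 5 most abundant miR-146 site peaks, and target peaks with a match. The summed miR-146 paralogs and the summed ratio split by cell type were added after their values were seen. Some genes of the target lists are not reported here.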

Additional observations from a re-analysis of the deposited data

How the results depend on the processing

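Leaving out 1 library each, the miRNA calls numbered 20 (without WT library 3) to 56 against 40, the peak calls 1410 (without G12D library 2) to 2275 against 2170, and the called miR-146 site peaks 7 to 15 against 14. The miRNA calls numbered 25 with the replicate block, 24 with a mean of at least 50 and 18 with no variance trend. The peak calls were 790 of 1329 and the called miR-146 site peaks 7 of 16 with a mean of at least 20, and 23 of 50 miR-146 site peaks were called with no filter. Same-numbered miRNA libraries of the genotypes had correlations of their deviations of -0.42, -0.32 and -0.00031, so the numbers were not taken as pairs. With the replicate block the summed ratio to epithelial reads, whose value of -0.65 a block cannot change at 3 against 3, had an exact permutation p of 0.5, where 0.25 is the smallest possible.

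miR-146a-5p passed limma at -0.75 with a pseudocount of 5 or a mean of at least 50, at -0.82 with quantile normalization, at -1.12 with the same total per library and at -1.15 with the same epithelial sum. It passed at -1.03 with edgeR and TMM, -0.81 with edgeR and the deposited factors, -0.86 with DESeq2, and -1.08 summed with its paralog. With 1 library left out its range was -0.96 to -0.44, past the threshold without G12D library 1, WT library 1 or WT library 2. miR-133a-3p, never called, was negative with edgeR and TMM (-0.34), edgeR and the deposited factors (-0.13), DESeq2 (-0.18), the same total (-0.23) and the same epithelial sum (-0.27). Its range with 1 library left out was -0.30 to 0.75, and for miR-143-3p, also never called, -0.44 to 0.58. miR-143-3p is not among the miRNAs with a mean of at least 50. The summed ratio to epithelial reads turned to 0.083 without miR-146a-5p and was -0.97 to -0.31 with 1 library left out. It was -0.53 for the muscle and stromal pair alone and -0.65 for the blood cell pair alone, splits chosen after seeing the data. The Hmgcs1 peak turned to -0.50 with edgeR and -0.30 with DESeq2, and its range with 1 library left out was -0.12 to 0.25. The cause of these differences was not tested. miR-143-3p had 24 to 120 reads per library.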
